A study of Mus musculus with 6 samples.

Results

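Transcripts of 9 genes of pyruvate dehydrogenase and the citric acid cycle were compared in mouse G1E-ER4 cells that received either the CHD4-APR or the CTRL peptide. The genes were chosen by name for their roles in the pathway, with earlier results of these data known, out of 48709 genes counted: Pdha1, Pdhb, Pdk1, Cs, Idh3a, Idh2, Ogdh, Fh1 and Mdh2. In this line, whose parent came from embryonic stem cells, the erythroid transcription factor GATA1 is present only as a hormone-dependent fusion with part of the estrogen receptor. Tamoxifen switches the fusion on, and the progenitors then mature along the erythroid path. The CHD4-APR peptide holds the aggregation-prone region of the chromatin remodeler CHD4 and the CTRL peptide a run of alanines, both joined to a Tat sequence for entry into cells. Each group of 3 polyA RNA libraries had 10 μM of peptide for 2 h and then tamoxifen for 28 h. The labels give tamoxifen as 100 nM for the culture of the line and as 100 μM for this experiment. Both groups carry the fusion and both had tamoxifen, so no library shows undifferentiated cells. All libraries come from 1 cell line, nothing states that they were separate cultures, and no sequencing batch is given, so the p-values below measure the spread between these libraries, which may be technical. In bulk RNA, fewer cells of a type and less RNA per cell cannot be told apart.

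Pyruvate from glycolysis enters mitochondria and is turned into acetyl-CoA by the pyruvate dehydrogenase complex, which is built of an E1 decarboxylase, an E2 transacetylase and an E3 dehydrogenase. Pyruvate dehydrogenase kinases switch E1 off by phosphorylation and phosphatases switch it on again. Acetyl-CoA then joins oxaloacetate to form citrate, and the cycle returns citrate to oxaloacetate while it loads NADH for respiration. In erythroid cells the cycle also supplies the succinyl-CoA from which heme synthesis starts, and mature red cells lose their mitochondria.

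Of the 9 genes, 8 had enough counts to be tested and 1, Idh2, did not. With the CHD4-APR peptide Pdha1 was higher and Pdk1, Fh1 and Mdh2 were lower, whereas Pdhb, Cs, Idh3a and Ogdh did not pass the test. The test was edgeR's quasi-likelihood F-test with Benjamini-Hochberg adjustment over all genes, and a gene was called at an adjusted p, written edgeR FDR from here on, under 0.05. The background was high: of 12722 genes tested, 38.3% were called, with 20.4% higher and 17.8% lower. Against those shares stand 4 calls among 8 genes, 1 higher and 3 lower, and nothing particular to these genes is read from so few. Pdk1 fell by 13.4% and Mdh2 fell by 13.1%, the largest changes among the 9 genes in this fit, and 0 of them reached 1.5-fold. The place of Pdk1 rests on CHD4-APR replicate 1, without which its log2 fold change was -0.098, beside -0.19 for Mdh2. The median log2 fold change over the 8 genes was -0.051, beside -0.012 over all genes tested. The CTRL and CHD4-APR libraries did not overlap in 5 of the 8 genes, beside 49.9% of all genes tested.

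**Figure D1:**
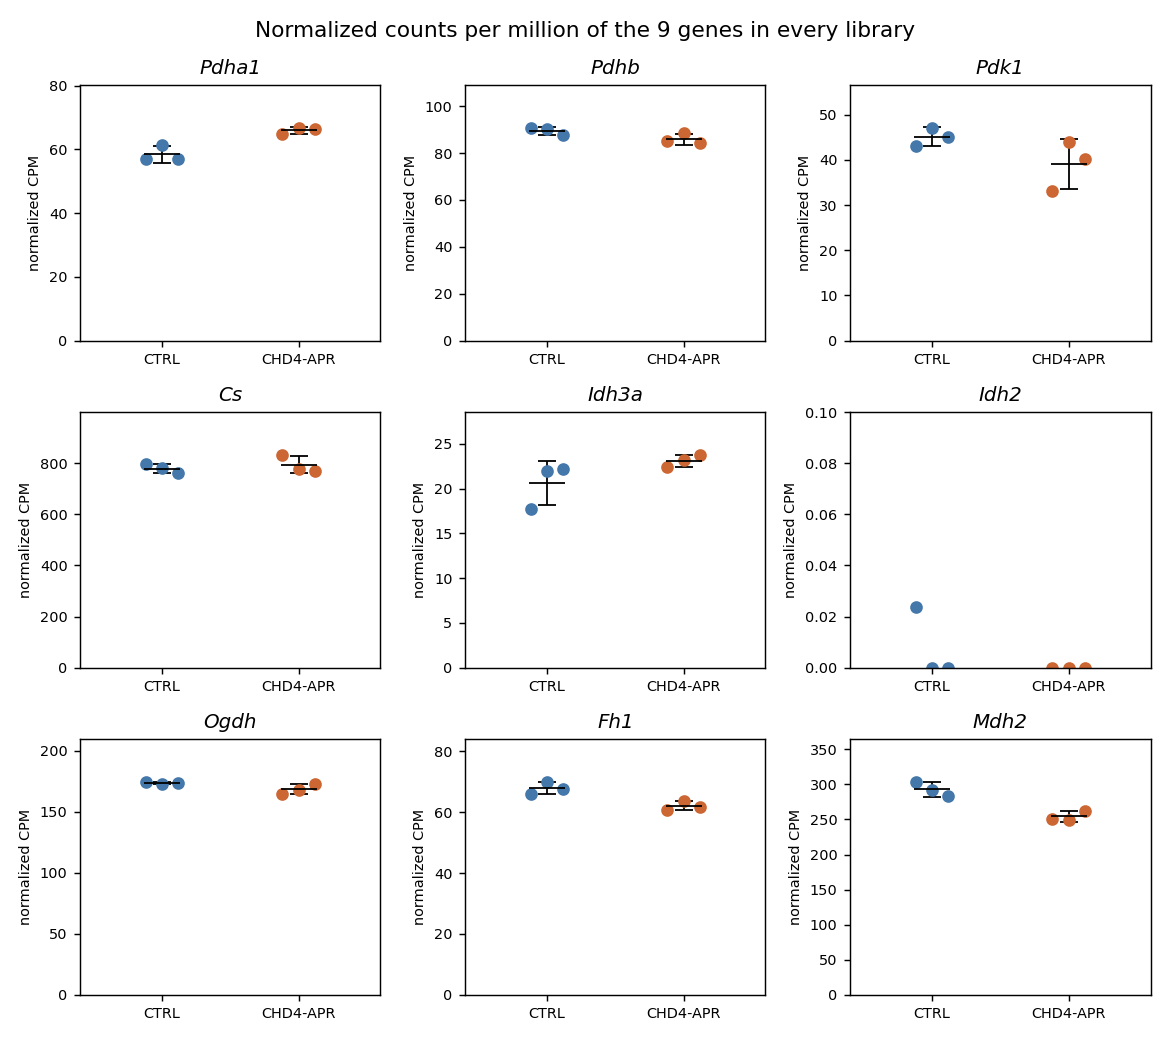
Normalized CPM (vertical axis, from 0) of each of the 9 genes in the 3 CTRL and 3 CHD4-APR libraries. Points are libraries 1, 2 and 3 from left to right, the horizontal line is the mean and the bars are the SD, and Idh2 has points only. Pdha1 sits higher in all CHD4-APR libraries, Fh1 and Mdh2 sit lower, and 1 CHD4-APR library of Pdk1 lies far below the others at 33.2 CPM.

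Pdha1 encodes the alpha subunit of the E1 decarboxylase, the subunit that the kinases phosphorylate, and lies on chromosome X from 160122209 to 160138413 of GRCm38, on the minus strand. Its normalized CPM, the counts relative to the scaled size of the library, was 56.9, 61.4 and 56.9 with CTRL and 64.7, 66.8 and 66.3 with CHD4-APR (libraries 1, 2 and 3 in this order here and below). Every CHD4-APR library was above every CTRL library. The mean went from 58.4 ± 2.61 to 66.0 ± 1.11 (SD, n = 3 in each group), and the log2 fold change was 0.18 with a standard error (SE) of 0.049 and an edgeR FDR of 0.0103. The call was lost with the length and GC correction, at 0.099 (edgeR FDR 0.0839), and without CTRL replicate 3 (edgeR FDR 0.0594). Of its 3734 exonic bases, 603 overlap Map3k15 on the other strand, to which 5 to 16 counts per library were assigned, and reads of the 2 genes there cannot be told apart.

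Pdhb encodes the beta subunit of E1, which assembles with the alpha subunit, and lies on chromosome 14 from 8165996 to 8173025. Its normalized CPM was 90.9, 90.1 and 87.6 with CTRL and 84.9, 88.4 and 84.3 with CHD4-APR. The groups overlapped, since CHD4-APR library 2 was above CTRL library 3. The log2 fold change was -0.060, with a 95% interval of -0.16 to 0.035 and an edgeR FDR of 0.314, and with the length and GC correction it was -0.13 and passed (edgeR FDR 0.0314). Per length of exon, the ratio of Pdha1 to Pdhb transcripts was 0.647, 0.705 and 0.672 with CTRL and 0.788, 0.782 and 0.814 with CHD4-APR. The transcripts of the E1 subunits were thus nearer to each other in every CHD4-APR library, but this ratio was chosen after the values were seen and was given no test.

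The other subunits of the complex were Dlat (E2), Dld (E3) and Pdhx, the protein that holds E3 to the E2 core. Over the 5 genes of the complex, 3 were higher, 0 were lower and 2 did not pass, beside 20.4% higher and 17.8% lower among all genes tested. The count of genes lower was also 0 at an unadjusted p under 0.05, and with DESeq2 and limma-voom. Dlat rose from 64.5 ± 3.36 to 71.7 ± 1.77 normalized CPM (SD, n = 3), a log2 fold change of 0.15 (edgeR FDR 0.0258) that was 0.063 with the length and GC correction (edgeR FDR 0.304). Dld, which also serves the 2-oxoglutarate dehydrogenase complex, rose by 0.15 on the log2 scale (edgeR FDR 0.0329), with groups that overlapped, and its log2 fold change turned to -0.042 with the length and GC correction (edgeR FDR 0.459). Both calls were lost without CTRL replicate 1 (edgeR FDR 0.0743 for Dlat and 0.0959 for Dld), CTRL replicate 3 (0.0743 and 0.112) or CHD4-APR replicate 3 (0.0882 and 0.10), and that of Dld also without CHD4-APR replicate 2 (0.0962). Pdhx had a log2 fold change of 0.044 (95% interval -0.077 to 0.16, edgeR FDR 0.586). With the length and GC correction, 0 of the 5 genes were higher and 1, Pdhb, was lower, beside 1510 higher and 2011 lower of 12677 genes.

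Pdk1 encodes a pyruvate dehydrogenase kinase that is known as a target of hypoxia-inducible factor 1, and lies on chromosome 2 from 71873224 to 71903858. Its normalized CPM was 43.0, 47.2 and 45.2 with CTRL and 33.2, 44.0 and 40.2 with CHD4-APR. CHD4-APR library 1 was the lowest, and CHD4-APR library 2 lay above CTRL library 1, so the groups overlapped. The mean fell from 45.1 ± 2.06 to 39.1 ± 5.46 (SD, n = 3), a log2 fold change of -0.21 (SE 0.079, edgeR FDR 0.0481). The call depended on single libraries: the log2 fold change was -0.098 without CHD4-APR replicate 1 (edgeR FDR 0.277), and was also lost without CTRL replicate 2 (edgeR FDR 0.125), CTRL replicate 3 (edgeR FDR 0.113) or CHD4-APR replicate 3 (edgeR FDR 0.0739). RLE scaling (edgeR FDR 0.0530), library totals only (-0.16, edgeR FDR 0.148) and at least 10 counts in every library (edgeR FDR 0.0519) ended it too. The call was kept in 10 of 19 alternatives. With the length and GC correction the estimate was larger, -0.38 (edgeR FDR 0.00106).

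Among the other kinases, Pdk2 fell and Pdk3 did not pass, and Pdk4 had 0 counts in every library. Pdk2 had a normalized CPM of 46.3, 40.9 and 42.6 with CTRL and 35.1, 35.8 and 36.6 with CHD4-APR. These groups did not overlap, and the log2 fold change was -0.27 (edgeR FDR 0.00164), which shrank to -0.13 with the length and GC correction (edgeR FDR 0.0485). Pdk3 had a log2 fold change of 0.050 (95% interval -0.054 to 0.15, edgeR FDR 0.460). Per length of exon, Pdk3 made up 52.4% ± 1.08 of the summed kinase transcripts with CTRL and 57.6% ± 0.956 with CHD4-APR (SD, n = 3). The share of Pdk2 was 33.4% ± 1.83 and 29.4% ± 0.999, and that of Pdk1 was 14.2% ± 0.773 and 13.0% ± 1.33. Pdk1 was the smallest of the 3 kinases detected on this scale only. Not divided by length, Pdk2 had the lowest mean, 43.3 normalized CPM with CTRL and 35.9 with CHD4-APR, beside 45.1 and 39.1 for Pdk1.

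The phosphatase genes held larger rises. Pdpr, the regulatory subunit of the pyruvate dehydrogenase phosphatase, had a normalized CPM of 10.2, 14.3 and 14.0 with CTRL and 23.3, 26.4 and 21.9 with CHD4-APR, a log2 fold change of 0.89 (edgeR FDR 1.05e-05). Pdp2, a catalytic subunit, rose from 22.2 ± 0.546 to 27.9 ± 2.44 normalized CPM (SD, n = 3), a log2 fold change of 0.33 (edgeR FDR 0.00143). Pdpr and Pdp2 passed the threshold in all 19 alternatives run on single genes. Pdp1, the other catalytic subunit, lay between 0.203 and 0.515 normalized CPM and did not pass (edgeR FDR 0.0723), but did without CHD4-APR replicate 3 (edgeR FDR 0.0267). Of the 6 kinase and phosphatase genes tested, 2 were higher and 2 lower, beside 20.4% and 17.8% of all genes tested.

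**Figure D2:**
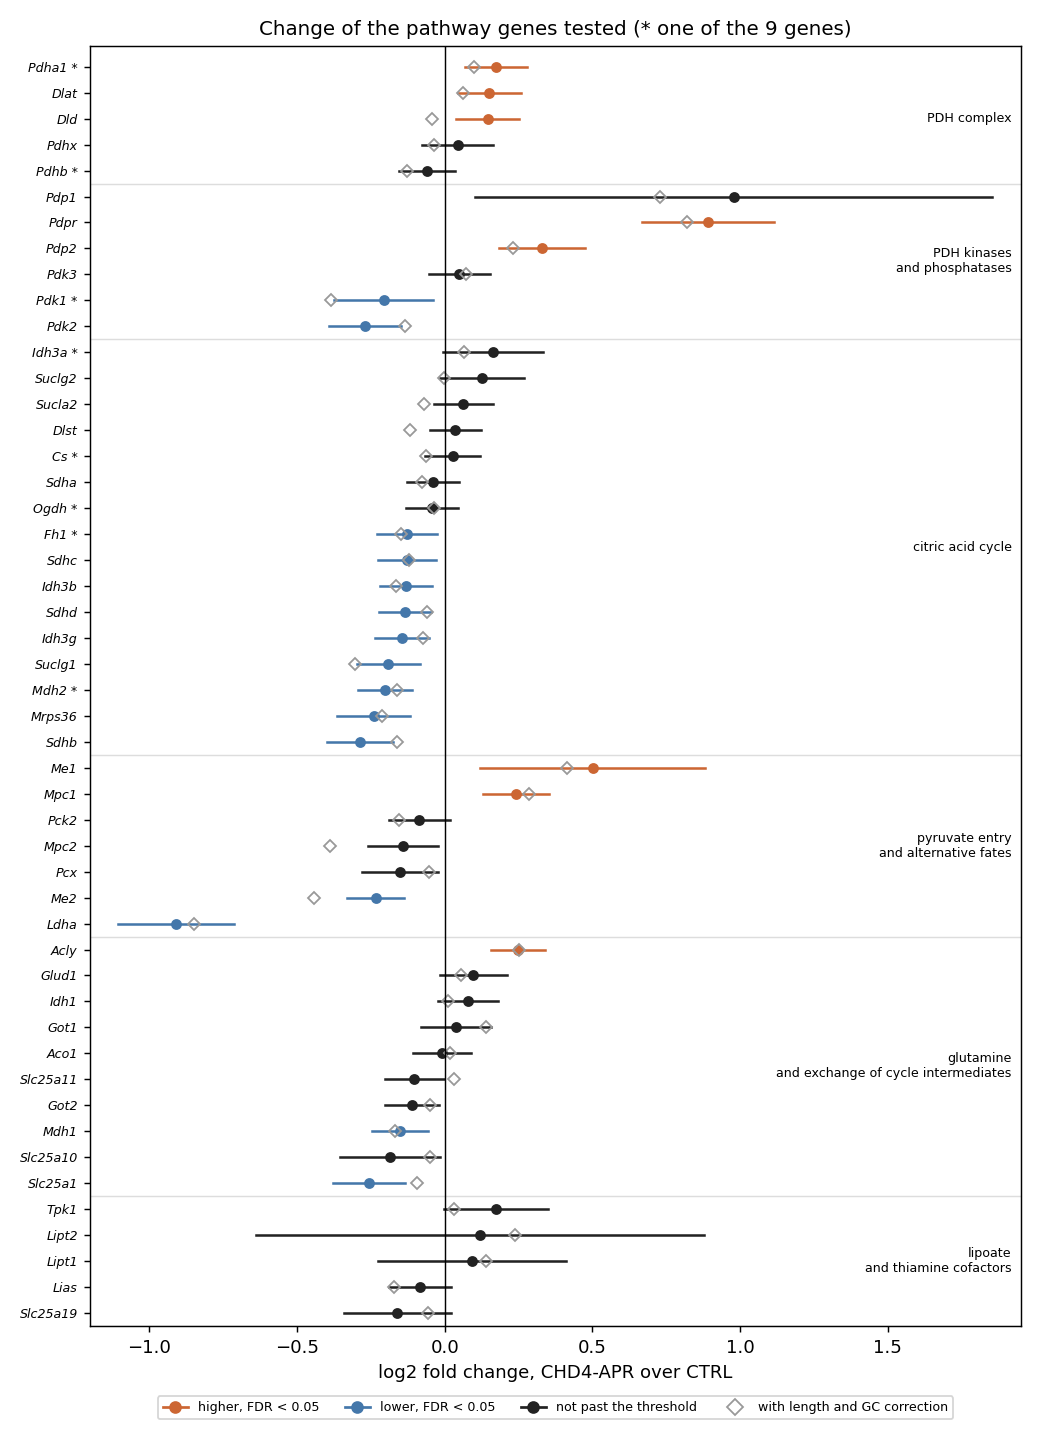
Log2 fold change of CHD4-APR over CTRL (horizontal axis) for 49 of the 51 genes tested of a 57-gene pathway list, grouped by role. Filled points are the fitted changes with their 95% intervals, coloured by direction where the FDR was under 0.05, open diamonds are the changes after a length and GC correction, and asterisks mark 8 of the 9 genes. Every call among the cycle genes shown is to the lower side, and Pdpr and Ldha stand farthest from 0 among all calls shown.

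Cs encodes citrate synthase, which joins acetyl-CoA and oxaloacetate, and lies on chromosome 10 from 128337734 to 128362479. In the 6 libraries it had 797, 779 and 760.2 with CTRL and 833, 779 and 769.6 with CHD4-APR (normalized CPM). The groups overlapped, and the highest value was that of CHD4-APR library 1. The log2 fold change was 0.027, with a 95% interval of -0.066 to 0.12 and an edgeR FDR of 0.664, and it turned to -0.064 with the length and GC correction (edgeR FDR 0.280). The citrate synthase-like gene Csl had 0 to 2 counts per library.

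Idh3a encodes the alpha subunit of the NAD-dependent isocitrate dehydrogenase, which holds its catalytic site, and lies on chromosome 9 from 54586334 to 54604661. Its normalized CPM was 17.8, 22.0 and 22.2 with CTRL and 22.5, 23.2 and 23.8 with CHD4-APR. The groups did not overlap, by a narrow margin, and CTRL library 1 was the lowest. The log2 fold change of 0.16 had a 95% interval of -0.0053 to 0.33 and did not pass (edgeR FDR 0.119), nor did it in 18 of 19 alternatives. It passed with a replicate block (edgeR FDR 0.0472), but was 0.067 without CTRL replicate 1 (edgeR FDR 0.474), 0.066 with the length and GC correction (edgeR FDR 0.537) and 0.069 with that correction and the block (edgeR FDR 0.430). Its partner subunits Idh3b and Idh3g were lower, with log2 fold changes of -0.13 (edgeR FDR 0.0200) and -0.14 (edgeR FDR 0.0153). Both calls were lost without CHD4-APR replicate 1 (edgeR FDR 0.0860 for Idh3b and 0.0702 for Idh3g) or CHD4-APR replicate 2 (0.0839 and 0.0831), and that of Idh3b also without CTRL replicate 3 (0.0512) or CHD4-APR replicate 3 (0.0510). Library totals only also ended both (edgeR FDR 0.101 for Idh3b and 0.0850 for Idh3g), and the length and GC correction ended that of Idh3g, at -0.074 (edgeR FDR 0.151). Idh3a was also the scarcest of the 3 subunits: per length of exon, Idh3b was 16.7-fold and Idh3g 11.9-fold above it with CTRL, and 13.4-fold and 9.49-fold with CHD4-APR. The per-length scale counts every annotated exon, so an exon that these cells do not use lowers the value of a gene.

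Idh2 encodes the NADP-dependent isocitrate dehydrogenase of mitochondria and lies on chromosome 7 from 80094846 to 80115392, on the minus strand. It had 1 count in CTRL library 1 and 0 counts in the other 5 libraries, out of 267900381 counts in all, so it could not be tested. A count of 0 allows up to 3 counts, or 0.0603 to 0.0720 CPM depending on the library, which covers counting error only. Most of its neighbours were detected: of the other 14 protein-coding genes that reach within 250 kb of it, Zfp710 on one side had 743 to 902 counts per library and Sema4b on the other side 1038 to 1567. Arpin, with 0 to 1 counts, was the only one of these neighbours near 0. The cytosolic form Idh1 went from 137 ± 5.25 to 145 ± 7.18 normalized CPM (SD, n = 3), with a log2 fold change of 0.079 that did not pass (95% interval -0.023 to 0.18, edgeR FDR 0.213). Per length of exon, Idh1 made up 29.3% ± 1.04 of the summed isocitrate dehydrogenase transcripts with CTRL and 32.4% ± 1.52 with CHD4-APR. Whether Idh2 transcripts were absent from the cells or lost in the counting was not tested.

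**Figure D3:**
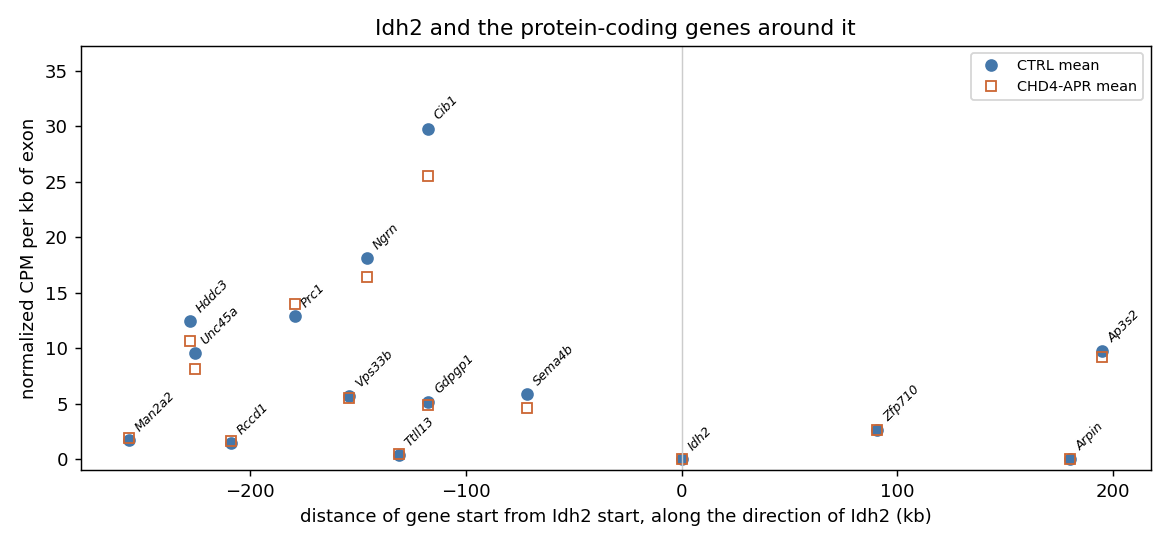
Mean normalized CPM per kb of exon (vertical axis) of Idh2 and the other 14 protein-coding genes that reach within 250 kb of it, against the distance of their start from that of Idh2 in kb (horizontal axis, positive in the direction of Idh2 transcription). Filled circles are CTRL means and open squares CHD4-APR means, each over 3 libraries. Idh2 and Arpin lie at or near 0, among neighbours that reach 29.8 at Cib1 with CTRL.

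Ogdh encodes the E1 subunit of the 2-oxoglutarate dehydrogenase complex and lies on chromosome 11 from 6291633 to 6356642. The normalized CPM of Ogdh was 174, 173 and 173 with CTRL and 165, 168 and 173 with CHD4-APR. CTRL was even, and the mean went from 174 ± 0.736 to 169 ± 4.11 (SD, n = 3). The groups did not overlap, with less than 1 CPM between their nearest libraries, and the log2 fold change of -0.042 did not pass (95% interval -0.13 to 0.046, edgeR FDR 0.462). Of the proteins that work with it, Dlst, the E2 subunit, had a log2 fold change of 0.037 (edgeR FDR 0.516), which turned to -0.12 and passed with the length and GC correction (edgeR FDR 0.0205). Mrps36, which tethers E3 to this complex, was lower at -0.24 (edgeR FDR 0.00371). The related gene Ogdhl had at most 0.0447 normalized CPM in any library and was not tested.

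Fh1 encodes fumarate hydratase, which turns fumarate into malate, and lies on chromosome 1 from 175600374 to 175625635, on the minus strand. Its normalized CPM was 65.9, 70.0 and 67.8 with CTRL and 60.9, 63.9 and 61.8 with CHD4-APR. Every CHD4-APR library was below every CTRL library. The mean fell from 67.9 ± 2.04 to 62.2 ± 1.51 (SD, n = 3), a log2 fold change of -0.13 (SE 0.048, edgeR FDR 0.0456). The direction was the same in all 19 alternatives, but 9 kept the call. It was lost with DESeq2 (FDR 0.0587) and when any 1 of CTRL libraries 2 and 3 and CHD4-APR libraries 1, 2 and 3 was left out (edgeR FDR 0.0799 to 0.153). RLE scaling, library totals only and no filter on low counts ended it too. Over the alternatives the log2 fold change of Fh1 ran from -0.15 to -0.082, with an FDR of up to 0.224.

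Mdh2 encodes the mitochondrial malate dehydrogenase, which closes the cycle at oxaloacetate, and lies on chromosome 5 from 135778480 to 135790398. It had a normalized CPM of 304, 292 and 283 with CTRL and 251, 249 and 263 with CHD4-APR. The groups did not overlap. The mean fell from 293 ± 10.5 to 254 ± 7.34 (SD, n = 3), a log2 fold change of -0.20 (SE 0.044, 95% interval -0.30 to -0.11, edgeR FDR 0.00163). Among the 9 genes it was the only one past the threshold in all 19 alternatives, with log2 fold changes between -0.23 and -0.16. The cytosolic form Mdh1 was lower too, at -0.15 (edgeR FDR 0.0145, but 0.0667 when CHD4-APR library 2 was left out and 0.0752 when CHD4-APR library 3 was, and 0.0762 with library totals only), and the share of Mdh2 in the summed malate dehydrogenase transcripts per length was 63.5% ± 0.0852 with CTRL and 62.6% ± 0.974 with CHD4-APR (SD, n = 3).

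Over the 17 cycle genes tested, 10 were lower and 0 were higher, with a median log2 fold change of -0.13, beside 17.8% lower and 20.4% higher among all genes tested. Among the 10, the calls of Fh1, Idh3b and Idh3g were lost without CHD4-APR replicate 1 and again without CHD4-APR replicate 2. With library totals only, 4 of the 17 were lower and 0 higher, beside 1474 lower and 2959 higher among all genes in that fit. DESeq2 gave 9 lower and 0 higher and limma-voom 10 and 0, and at an unadjusted p under 0.05 edgeR gave 10 and 0, limma-voom 10 and 1, and edgeR on library totals 8 and 3. Beside the genes above, the largest falls were those of Sdhb, the iron-sulfur subunit of succinate dehydrogenase, and of Suclg1, a subunit of succinyl-CoA ligase. Sdhb had a normalized CPM of 92.7, 83.6 and 89.0 with CTRL and 68.2, 74.3 and 75.0 with CHD4-APR, a log2 fold change of -0.29 (edgeR FDR 0.000523), or -0.16 with the length and GC correction (edgeR FDR 0.0123). Suclg1 had a log2 fold change of -0.19 (edgeR FDR 0.00743), or -0.30 with that correction (edgeR FDR 0.000106). With the length and GC correction, 8 cycle genes were lower and 0 were higher, beside 2011 lower and 1510 higher of 12677 genes in that fit. The summed normalized CPM of the cycle list was 3353 ± 52.1 with CTRL and 3216 ± 22.5 with CHD4-APR (SD, n = 3), which was given no test. Over the whole pathway list 51 of 57 genes were tested and 9 were higher and 16 lower, with a median log2 fold change of -0.042. This split moved with the scaling, to 9 higher and 8 lower with library totals only, 8 and 19 with upper quartile scaling, and 4 and 17 with the length and GC correction. It also moved with single libraries, to 8 and 10 without CHD4-APR replicate 1 or 3 and 7 and 9 without CHD4-APR replicate 2. Without CTRL replicate 1, 2 or 3 it was 7 and 15, 8 and 16, or 5 and 13.

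**Figure D4:**
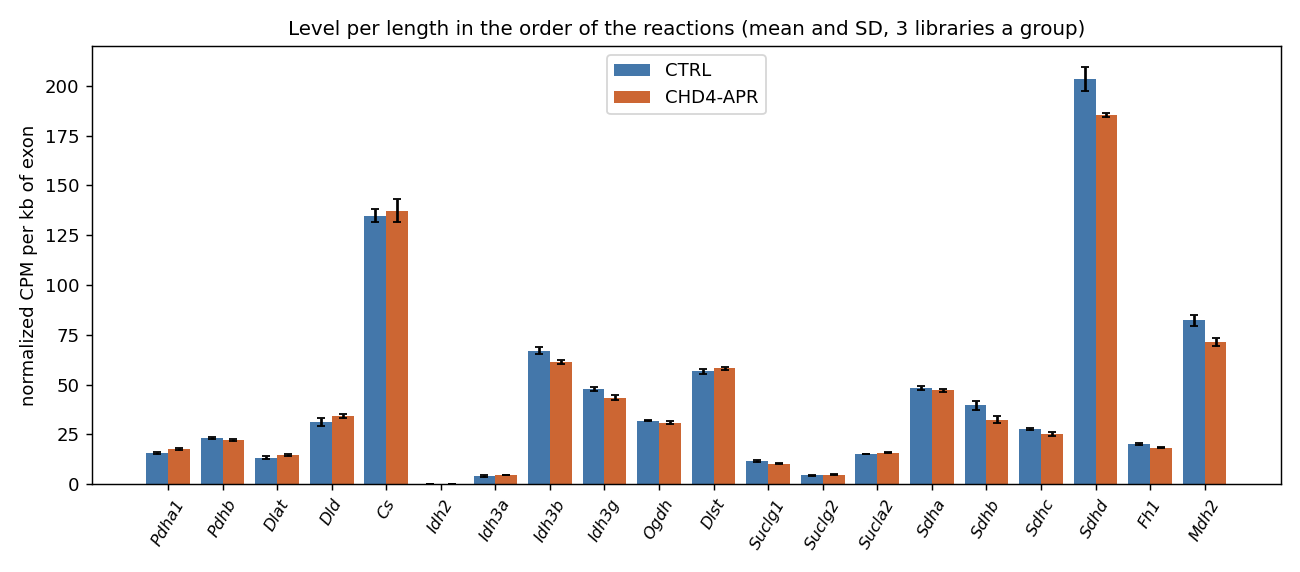
Level per length (normalized CPM per kb of exon, vertical axis) of the subunits of pyruvate dehydrogenase and of most enzymes of the cycle, in the order of the reactions. Bars are the mean of 3 CTRL or 3 CHD4-APR libraries and the error bars are the SD. Sdhd and Cs stand highest, Idh2 lies at or near 0, and Idh3a lies far below Idh3b and Idh3g.

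Set in order per length of exon, the 9 genes spanned a wide range. With CTRL the levels were 135 ± 3.18 for Cs, 82.2 ± 2.93 for Mdh2, 31.8 ± 0.135 for Ogdh, 23.2 ± 0.448 for Pdhb, 20.0 ± 0.602 for Fh1, 15.6 ± 0.698 for Pdha1, 5.80 ± 0.265 for Pdk1 and 4.07 ± 0.491 for Idh3a normalized CPM per kb (SD, n = 3), with Idh2 last. Neighbours in this order did not overlap in the CTRL libraries. Over all 6 libraries Pdk1 and Idh3a overlapped, since the lowest Pdk1 level was 4.27 and the highest Idh3a level was 4.69, both with CHD4-APR.

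By a rule of likeness set for the 2 genes with the largest changes as fitted with all libraries, the genes whose log2 CPM followed Pdk1 most closely over the 6 libraries were Zbtb32, Nfix and Gtse1 (Pearson's r of 0.997, 0.993 and 0.985). Those most like Mdh2 were Eef1g, Bloc1s2 and Commd2 (r of 0.999, 0.999 and 0.998). These are the highest of many values over only 6 libraries that share the group difference, and they are descriptions.

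The promoters of 8 of the 9 genes were found in the RefSeq table for GRCm38, from 250 bases before to 50 after the annotated start. The 3 shown are those of Mdh2, whose call was the most stable, of Pdk1, whose change was near that of Mdh2 but rested on single libraries, and of Idh2, which had next to no counts. They lie at chr5:135778399-135778698 on the plus strand, chr2:71872974-71873273 on the plus strand and chr7:80115301-80115600 on the minus strand, and are written 5′ to 3′ with matches to the motifs named next in capitals.
Mdh2: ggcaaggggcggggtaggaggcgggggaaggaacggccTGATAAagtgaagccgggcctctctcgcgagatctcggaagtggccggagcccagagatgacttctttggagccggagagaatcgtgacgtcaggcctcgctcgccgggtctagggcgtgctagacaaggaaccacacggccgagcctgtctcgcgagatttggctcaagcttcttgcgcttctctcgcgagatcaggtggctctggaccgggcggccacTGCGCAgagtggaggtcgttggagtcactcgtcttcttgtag
Pdk1: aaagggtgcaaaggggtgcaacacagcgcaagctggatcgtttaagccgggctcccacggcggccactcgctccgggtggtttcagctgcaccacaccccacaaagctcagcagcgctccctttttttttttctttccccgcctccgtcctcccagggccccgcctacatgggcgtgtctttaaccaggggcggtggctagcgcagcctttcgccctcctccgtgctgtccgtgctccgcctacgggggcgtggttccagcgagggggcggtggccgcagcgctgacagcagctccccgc
Idh2: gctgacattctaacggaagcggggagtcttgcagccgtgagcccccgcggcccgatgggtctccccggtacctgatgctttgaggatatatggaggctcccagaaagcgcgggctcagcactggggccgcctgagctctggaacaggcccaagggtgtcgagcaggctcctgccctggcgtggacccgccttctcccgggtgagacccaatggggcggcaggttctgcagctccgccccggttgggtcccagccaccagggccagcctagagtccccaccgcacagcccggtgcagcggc

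The motifs were searched on both strands, and no matches overlapped. ACGTG, a form of the core bound by hypoxia-inducible factors and also part of E-boxes, was in 2 of 8 windows, those of Pdhb and Ogdh. It was in 19.6% of 32851 windows of all genes. GCGTG, the other form of that core, was not searched. ACGTG was not among the letters of the Pdk1 window, but these letters do hold GCGTG. Pdk1 has 2 windows in the RefSeq table, of which only the window shown was searched. The GATA motifs AGATAA and TGATAA were in 0 and 1 of 8 windows, beside 11.2% and 9.1%. The match was in Mdh2, at position -212 from the start, and the same window held TGCGCA, the core bound by NRF1, at position 8, a motif in 7.8% of all windows. AAGGTCA, a motif of estrogen-related receptors, was in 0 of 8 windows beside 4.7%. The Idh2 window held none of the 5 motifs but 20 CpG dinucleotides, at the 73.5 percentile of all windows. A match describes these letters only, and binding was not measured here.

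The change of a transcript went with its GC content and its length. Over the 51 pathway genes tested, Pearson's r between the log2 fold change and GC content was -0.46, and over 12677 genes with known length and GC content it was -0.40, both across genes, which are not independent replicates. The value with the log2 exonic length was 0.22 over the pathway genes and 0.31 over all. After the correction, which takes both, the values over the pathway genes were -0.13 for GC content and -0.065 for length. The higher Pdha1 had 45.5% GC and the lower Mdh2 had 50.9%, but the lower Pdk1 and the uncalled Pdhb both had 46.4%. In the corrected fit, Pdhb, Pdk1, Fh1 and Mdh2 were lower and 0 of the 8 genes were higher, while 1510 of all genes were higher and 2011 lower. The part of GC content and length in these results was not tested.

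**Figure D5:**
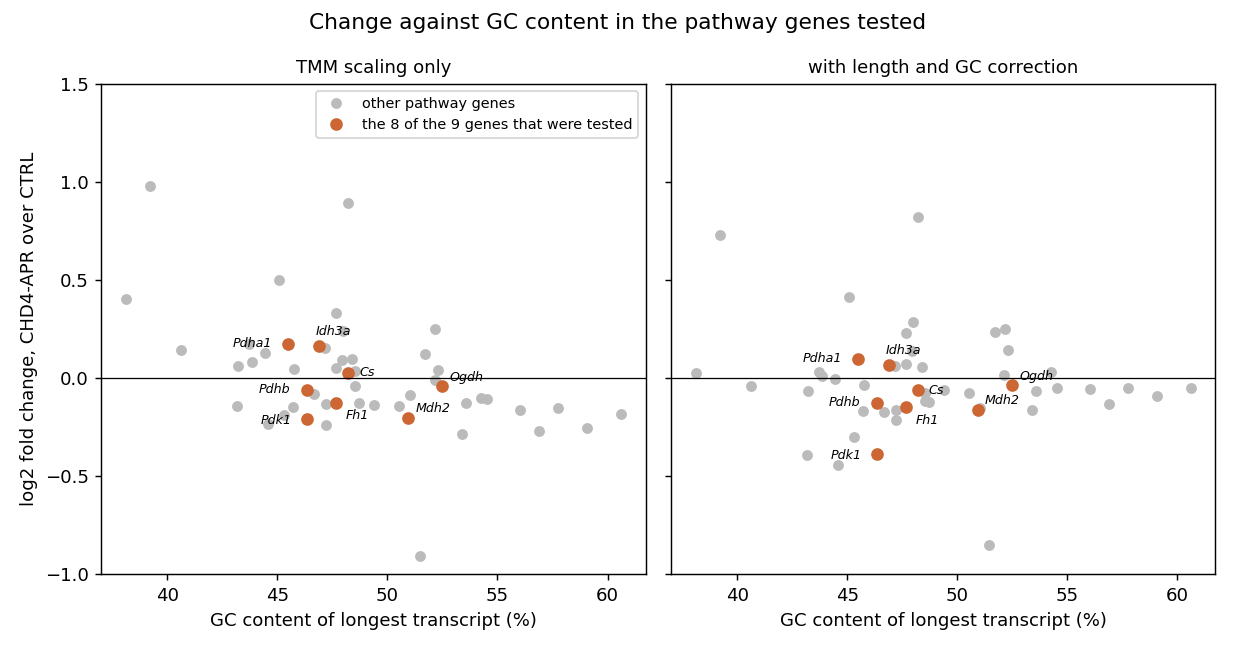
Log2 fold change of CHD4-APR over CTRL (vertical axis) against the GC content of the longest transcript in percent (horizontal axis) for the 51 pathway genes tested, as fitted (left) and after the length and GC correction (right). Coloured points are the 8 tested of the 9 genes and grey points the other pathway genes. The relation with GC content on the left (r of -0.46) is weaker on the right (r of -0.13), where Pdk1 and Pdhb lie lower.

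The libraries held 41687482 to 49784177 counts with CTRL and 41945739 to 46888804 with CHD4-APR. All 12 erythroid markers were detected, of which 3 rose and 5 fell, beside 20.4% and 17.8% of all genes tested. Gata1 was among those that rose, with and without the length and GC correction. Its counts may be those of the introduced fusion, the only form of GATA1 in this line. With the length and GC correction 3 were higher and 2 lower, and the calls of Hba-a1, Hba-a2, Klf1 and Tfrc were lost while Slc4a1 was called higher (0.12, edgeR FDR 0.0327). Their summed level was 71209 to 76524 normalized CPM with CTRL and 60682 to 64756 with CHD4-APR. Hemoglobin genes took 6.04% to 6.45% of the counts with CTRL and 5.11% to 5.44% with CHD4-APR, and with these genes removed before scaling 3 of the 9 genes passed, Pdk1 being lost (edgeR FDR 0.0504). The 5 myeloid markers summed to at most 4.72 normalized CPM, with Mpo at 0, the 4 lymphoid ones to at most 0.604, with Cd3e and Ms4a1 at 0, and the 3 mast cell ones to at most 0.446, with Mcpt8 at 0. The 4 megakaryocyte markers summed to 46.7 to 48.8 with CTRL and 39.9 to 45.7 with CHD4-APR, mostly from Itga2b, with Ppbp at 0 and with Gp9 lower by a log2 fold change of -0.31 (edgeR FDR 0.00986), or -0.11 with the length and GC correction (edgeR FDR 0.357), and the part of such cells in the results was not tested. Chd4 itself had a log2 fold change of 0.054 (edgeR FDR 0.322).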

How the data were processed

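RNA from mouse G1E-ER4 cells was measured in 3 CTRL and 3 CHD4-APR libraries, grouped by their labels. Libraries were made from polyA RNA with a TruSeq v2 kit, which does not mark strand. The authors trimmed reads with cutadapt, aligned them to GRCm38 with STAR 2.7.10a and assigned them to Ensembl genes with featureCounts. The deposited values are raw counts. The strand setting of the counting and its treatment of reads that match several genes are not given in the sources used here. Another 2 columns of the table match no sample and were not used.

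The 9 genes, the pathway list and the marker lists were chosen with earlier results of these data known. GENCODE M21 on GRCm38 named 48349 of 48709 identifiers, and gave exonic lengths (all exons merged) and GC contents (longest transcript). Counts were analysed in R 4.3.3 with edgeR 4.0.16 (filterByExpr, TMM scaling, quasi-likelihood F-test, Benjamini-Hochberg over 12722 genes, FDR under 0.05). SE were taken from the fold changes and their F statistics. Alternatives were DESeq2 1.42.0, limma-voom 3.58.1, other scalings and filters (at least 10 counts in every library, or none), removal of hemoglobin genes, a replicate block, offsets smoothed on length and GC content (loess, span 0.3, called the length and GC correction), an FDR under 0.01, a 1.5-fold minimum and leaving out each library. A fit of protein-coding genes only was added after seeing the data. The procedures were tested on simulated data. Genes named with values are the 9 genes, the other subunits of their complexes, the kinase family, and of each role up to 4 genes in each direction with an FDR under 0.05. Map3k15, Csl, Idh1, Mpc2, Lias and the neighbours of Idh2 were named after their values were seen. Some genes of the lists are counted but not reported here by name. Replicate libraries were no copies of each other, with chi-square values per degree of freedom of 4.62 to 15.5.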

Additional observations from a re-analysis of the deposited data

How the results depend on the processing

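Of the 9 genes, 4 passed an FDR under 0.05. The count was 2 with RLE scaling, 2 with library totals only, 1 at an FDR under 0.01, 0 with a 1.5-fold minimum, and 1 to 4 when a library was left out. It was 2 in the absence of CTRL replicate 2, 1 of CTRL replicate 3, 2 of CHD4-APR replicate 1 and 2 of CHD4-APR replicate 3. Of the pathway list 25 genes passed, 13 at an FDR under 0.01, 2 with the 1.5-fold minimum, and 16 to 24 when a library was left out, the lowest without CHD4-APR replicate 2. Over all genes 4871 passed, 3250 at an FDR under 0.01, 538 with the 1.5-fold minimum, and 3703 to 4928 when a library was left out. Upper quartile scaling gave 2419 genes higher and 2601 lower, library totals only 2959 and 1474, and the length and GC correction 1510 and 2011. With the length and GC correction, with and without the replicate block, the log2 fold changes of Pdhx, Dld, Cs and Dlst reversed to -0.035, -0.042, -0.064 and -0.12. Cs also reversed to -0.0052 without CHD4-APR replicate 1, and Ogdh to 0.0030 with library totals only. The causes were not tested. Of 588 gene values under an alternative, 504 kept their direction and side of the threshold, 63 lost the call, 11 gained it and 10 reversed.

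Libraries of the 2 groups share replicate numbers, and deviations of same-numbered libraries correlated at 0.070, 0.055 and -0.035. With 3 libraries a group, values this near 0 show no pairing by number and cannot exclude it. With the replicate block 5 of the 9 genes passed, Idh3a being added, and 27 of the pathway list, beside 5214 of all genes (2739 higher and 2475 lower). In the narrower promoter window, from 100 bases before to 50 after the start, ACGTG and TGATAA were in 0 of 8 windows and TGCGCA in 1, beside 11.5%, 4.0% and 5.2% of all windows. Idh2, with 1 count in all, is below what this depth can compare.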

Other observations

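Of the 7 genes tested that bring pyruvate to the mitochondrion or turn it elsewhere, 2 were higher and 2 were lower, beside 20.4% and 17.8% of all genes tested, and nothing is read from so few. Mpc1, a subunit of the mitochondrial pyruvate carrier, had a normalized CPM of 53.3, 59.7 and 57.8 with CTRL and 69.4, 66.4 and 66.1 with CHD4-APR, a log2 fold change of 0.24 (edgeR FDR 0.00188). Its partner subunit Mpc2 had a log2 fold change of -0.14 and did not pass (edgeR FDR 0.0563), but it passed at -0.39 with the length and GC correction (edgeR FDR 0.000288). Me2, the mitochondrial malic enzyme, was lower at -0.23 (edgeR FDR 0.000752), and at -0.44 with the length and GC correction (edgeR FDR 3.49e-06). The cytosolic Me1, scarce at 1.58 ± 0.195 normalized CPM with CTRL (SD, n = 3), was higher at 0.50 (edgeR FDR 0.0367), a call lost without CTRL replicate 2 (edgeR FDR 0.130), CTRL replicate 3 (0.0563), CHD4-APR replicate 1 (0.151) or CHD4-APR replicate 2 (0.0790), and also with DESeq2 (FDR 0.0526) and with the length and GC correction (edgeR FDR 0.109). Ldha, the lactate dehydrogenase subunit that competes for pyruvate, was lower at -0.91 (edgeR FDR 2.80e-06), and its lowest value, 53.5 normalized CPM, was in CHD4-APR library 1, the library with the lowest Pdk1. Ldhb had 0 counts in every library.

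Genes of glutamine use and of the exchange of cycle intermediates with the cytosol were called about as often as all genes, with 2 of 11 higher and 2 lower, beside 20.4% higher and 17.8% lower among all genes tested. Acly, which splits exported citrate into acetyl-CoA, had a normalized CPM of 331, 351 and 351 with CTRL and 421, 411 and 394 with CHD4-APR. Its log2 fold change was 0.25 (edgeR FDR 0.000335), and 0.25 with the length and GC correction. Slc25a1, the carrier that exports citrate from mitochondria, was lower at -0.26 (edgeR FDR 0.00239), and this call was lost with the correction (edgeR FDR 0.135). Of the 5 genes for the lipoate and thiamine cofactors of the dehydrogenase complexes, 0 passed in edgeR's test, 0 at an unadjusted p under 0.05, and 0 with DESeq2 or limma-voom. With the length and GC correction 1 was lower, Lias, which makes lipoate, at -0.17 (edgeR FDR 0.00949).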
